A study of Homo sapiens with 4 samples.

Results

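The genes described here encode the receptors for insulin and the insulin-like growth factors (IGFs) and the first proteins that carry their signal into the cell. They are the receptor genes INSR, IGF1R and IGF2R, the adaptor genes IRS1, IRS2 and IRS4, and the regulatory subunit genes PIK3R1 and PIK3R3 of phosphoinositide 3-kinase (PI3K). All 8 genes were measured, by 34 probe sets that the array's annotation pairs with exactly 1 symbol, out of 18132 such genes and 49293 probe sets in the table. The list was put together with the differences between these arrays known, and IRS2 is among the largest of them. Levels and differences of the 8 genes are therefore given as a description, without a test.

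RNA from Hs578T, a human breast cancer line with mesenchymal features, was hybridised to 4 one-colour Affymetrix PrimeView arrays. Replicates 1 and 5 came from cells labelled ELK3 knockdown, made stable with shRNA lentivirus, and replicates 1 and 2 from cells labelled ELK3 sh control. ELK3 is an ETS family transcription factor. Per the labels' protocols all cells grew in DMEM with 10% fetal bovine serum and 0.01 mg/ml insulin, so both groups were measured with insulin in the medium. The labels do not say whether replicate numbers stand for constructs, clones or cultures, so the spread between arrays may be technical. All levels are RMA log2 signals, a difference is the knockdown mean minus the control mean, and a fold is that difference turned back to the linear scale.

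Insulin and IGF1 each bind a receptor tyrosine kinase, the products of INSR and IGF1R, which are close relatives and can pair with each other. The active receptor phosphorylates insulin receptor substrate (IRS) proteins, which dock PI3K through its regulatory subunits and so switch on AKT and mTOR, while SHC and GRB2 lead to the RAS to ERK arm. IRS1 and IRS2 are the widespread adaptors, and IRS4 is found in few tissues. FOXO factors, which AKT keeps out of the nucleus, are known to activate IRS2 and INSR when insulin signalling is low. In breast cancer cells IRS1 and IRS2 are known to have different roles, with IRS2 linked to motility and invasion and IRS1 to growth.

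The promoters of IRS2 and IRS1 are shown because, of the 3 IRS genes, these differed most and in opposite directions. Each window runs from 250 bases before to 50 bases after the gene's start (RefSeq, build GRCh38.p14) and is printed 5′ to 3′ on the gene's strand. IRS2 lies on chromosome 13 (chr13:109786534-109786833, minus strand) and IRS1 on chromosome 2 (chr2:226799771-226800070, minus strand). Capitals mark the ETS core GGAA, or TTCC where it lies on the other strand, and TGTTTTG, letters of the kind known as an insulin response element.
IRS2: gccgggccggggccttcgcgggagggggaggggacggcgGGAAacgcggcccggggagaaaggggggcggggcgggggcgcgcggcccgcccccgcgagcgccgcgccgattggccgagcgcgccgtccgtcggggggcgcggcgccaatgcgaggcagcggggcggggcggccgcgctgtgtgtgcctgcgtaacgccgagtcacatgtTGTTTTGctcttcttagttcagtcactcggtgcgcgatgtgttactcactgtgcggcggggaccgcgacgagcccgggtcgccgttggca
IRS1: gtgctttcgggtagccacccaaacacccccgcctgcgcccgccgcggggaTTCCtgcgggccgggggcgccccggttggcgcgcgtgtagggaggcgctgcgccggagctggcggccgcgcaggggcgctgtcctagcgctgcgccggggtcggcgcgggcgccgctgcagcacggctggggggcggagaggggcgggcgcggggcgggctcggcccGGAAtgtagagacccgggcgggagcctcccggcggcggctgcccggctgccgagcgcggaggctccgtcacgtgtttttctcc
The IRS2 window holds GGAA at 1 place and TGTTTTG at 1 place, and the IRS1 window holds GGAA at 2 places and no TGTTTTG. On either strand, GGAA occurs in 95.5% of the 35116 windows of 300 bases in the table and TGTTTTG in 4.92%. The longer ETS form CCGGAAGT, found in 4.14% of windows, is in none of the 17 windows of the 8 genes. Nor is TGTTTAC, a form of FOXO sequence (3.42%), or the CArG box bound by serum response factor (1.29%). The palindrome CACGTG, found in 7.26% of windows, occurs at 1 place in the IRS1 window and at 3 in the IGF2R window. TGTTTTG is also in 1 of the 2 windows of IRS4, which holds CACGTG as well. These are matches of letters within each window, and ELK3 binding was not measured.

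ELK3 itself read 8.09 and 7.92 on the knockdown arrays and 10.05 and 10.07 on the control arrays. It was 4.16-fold lower (limma adjusted p = 2.57e-06), the direction the labels name. Falls of more than 2-fold were found for 7.52% of all genes, so this fall alone does not check the labels. The groups differed widely. At a limma adjusted p under 0.05, 50.8% of all genes passed, 29.5% higher and 21.3% lower in the knockdown arrays, and the groups did not overlap for 75.3% of genes. Correlations over probe sets were 0.996 and 0.998 within the groups and 0.902 to 0.904 between them. All 8 mesenchymal markers checked fell (VIM, FN1, ZEB1, CDH2, AXL, SPARC, COL1A2 and THY1), and their summed log2 signal was 67.7 to 68.4 in the knockdown and 102.8 to 103.4 in the control arrays. Of 8 luminal epithelial markers, KRT8, KRT18, KRT19 and FOXA1 rose, with CDH1, EPCAM, ESR1 and GATA3 not past the threshold and CDH1, EPCAM and ESR1 below the median of all values (6.78) on every array. The summed signal of that list was 67.0 to 67.7 in the knockdown and 51.4 to 51.9 in the control arrays. FOXA1 rose by 2.07 with the probe set used here, but its other probe set stood at 0.17. The part of these marker shifts in the results below was not tested. In RNA from many cells, a change in every cell and a change in the share of cells that express a gene cannot be told apart.

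Among the 8 genes, 3 were more than 2-fold higher in the knockdown arrays (IRS2, INSR and IGF1R), 1 was more than 2-fold lower (IRS1), and 4 differed by less than 1.3-fold (IGF2R, IRS4, PIK3R1 and PIK3R3), each read by its brightest probe set, the one with the highest mean of the 4 values. Over all genes, 10.2% were more than 2-fold higher and 7.52% more than 2-fold lower. For 6 of the 8 the groups did not overlap, beside the 75.3% above; nothing is read from this count, since the genes were chosen with this contrast known. Over single probe sets, 24 of 34 had groups that did not overlap and 14 of 34 differed more than 2-fold, beside 74.9% and 16.9% of all 44988 probe sets with 1 symbol.

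**Figure D1:**
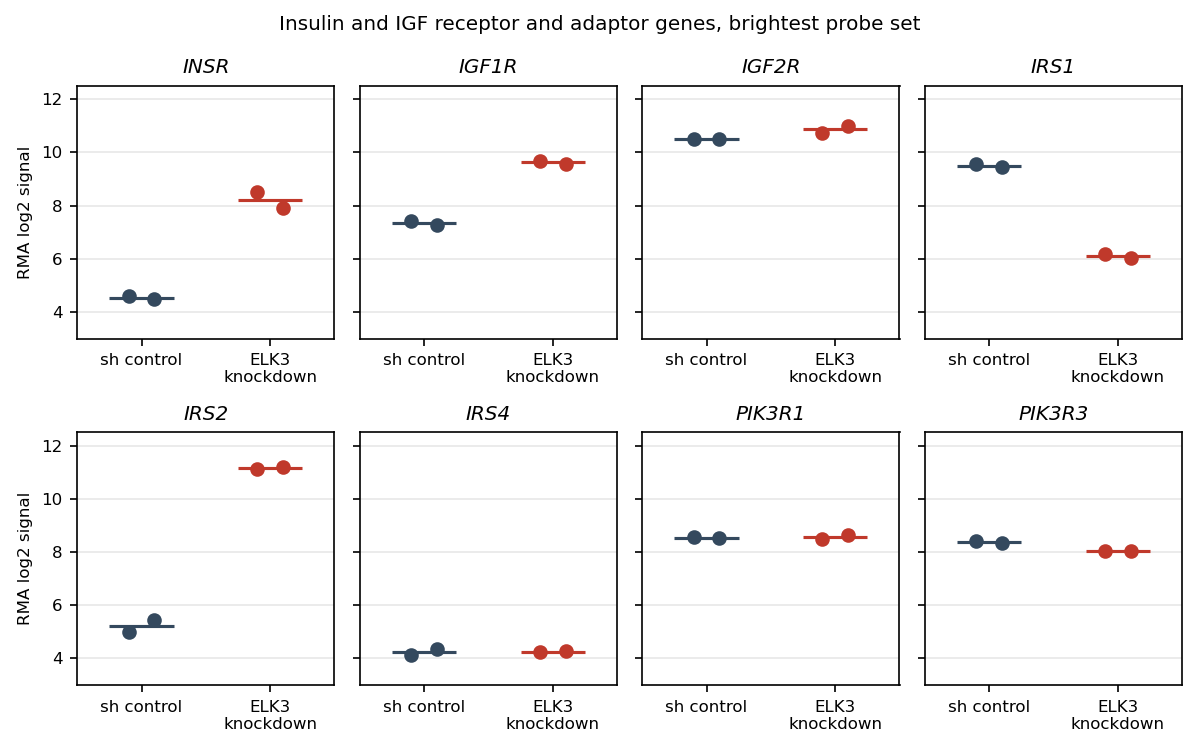
RMA log2 signal (vertical axis) of the brightest probe set of each gene on the 4 arrays, in sh control (dark) and ELK3 knockdown (red); points are arrays and bars are means of 2 arrays. IRS2 lies near 5 in the control and above 11 in the knockdown arrays, IRS1 runs the other way, and IRS4, PIK3R1, PIK3R3 and IGF2R lie at nearly the same height in both groups.

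INSR encodes the insulin receptor. Its brightest probe set (11740018_a_at) read 8.53 and 7.93 on the knockdown arrays (replicates 1 and 5, in this order throughout), and 4.59 and 4.47 on the control arrays (replicates 1 and 2). Both knockdown arrays lay far above both control arrays, and they differed from each other more than the control arrays did. The mean was 4.53 ± 0.0857 (SD, n = 2) in the control and 8.23 ± 0.423 (SD, n = 2) in the knockdown arrays, 13.0-fold higher (difference 3.70). All 5 INSR probe sets were higher in the knockdown arrays without overlap, but by unequal amounts. The differences ran from 1.02 to 3.70, with a median of 2.10. On the control arrays all 5 lay below the median of all values, so their folds depend partly on the floor. The smallest difference belongs to a probe set (11740017_a_at) that stayed below the median of all values on every array, at 6.11 and 6.08 against 5.06 and 5.10. Only for the brightest probe set did knockdown replicate 1 exceed replicate 5 by more than 0.1, and for 11720856_a_at the order was turned, at 6.94 and 7.26.

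IGF1R encodes the receptor for IGF1 and IGF2 that carries the growth signal. Its brightest probe set (11718705_at) read 9.69 and 9.58 on the knockdown arrays and 7.43 and 7.27 on the control arrays. The groups were apart by much more than the spread within either, with means of 7.35 ± 0.108 and 9.63 ± 0.0765 (SD, n = 2 each), which is 4.86-fold higher in the knockdown arrays (difference 2.28). The 7 IGF1R probe sets fell into a bright and a dim kind. The 4 that exceeded the median of all values on at least 1 array differed by 1.52, 1.81, 2.02 and 2.28, all without overlap. The other 3 lay below that median on every array and stood at -0.03, 0.22 and 0.50, and for the first and second of these the groups overlapped. Transcripts read by the dim probe sets cannot be placed above or below background, since an RMA table carries no detection call.

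IGF2R encodes the cation-independent mannose 6-phosphate receptor, which sorts lysosomal enzymes and removes IGF2 from outside the cell without passing on a growth signal. It read 10.74 and 10.99 on the knockdown arrays and 10.51 on both control arrays (11716129_at). Both knockdown arrays were above the controls, replicate 5 more so than replicate 1. The mean went from 10.51 ± 0.0047 to 10.87 ± 0.18 (SD, n = 2 each), 1.28-fold higher (difference 0.36). The other IGF2R probe sets differed by 0.36 and 0.20, and replicate 5 was the higher knockdown array in all 3.

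IRS1 encodes the adaptor best known for passing on the insulin and IGF1 growth signal. Its brightest probe set (11743629_at) read 6.19 and 6.03 on the knockdown arrays and 9.57 and 9.45 on the control arrays. IRS1 was thus low on both knockdown arrays and high on both control arrays. The mean was 9.51 ± 0.0864 in the control and 6.11 ± 0.109 in the knockdown arrays (SD, n = 2 each), 10.5-fold lower (difference -3.40), and 218 of the 18132 genes had a larger fall. All 3 IRS1 probe sets were lower without overlap, at -3.40, -2.66 and -1.30. Their 6 knockdown values lay between 5.82 and 6.30, below the median of all values, and their control means were 9.51, 8.66 and 7.44.

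IRS2 encodes the other widespread adaptor. It had 2 probe sets, and both were low on the control arrays and bright on the knockdown arrays. The probe set with the higher mean (11718013_at) read 11.14 and 11.21 on the knockdown arrays and 4.99 and 5.45 on the control arrays. Its mean was 5.22 ± 0.323 in the control and 11.18 ± 0.0511 in the knockdown arrays (SD, n = 2 each), 62.0-fold higher (difference 5.95), and 9 genes had a larger rise. The other (11718012_at) read 11.26 and 11.42 against 3.61 and 3.36, a difference of 7.85 or 231-fold. The knockdown means of the 2 probe sets were 11.18 and 11.34, and their control means were 5.22 and 3.49. On the control arrays both lay below the median of all values, and an RMA table does not say whether such values are above background.

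IRS4 encodes an adaptor that is normally confined to few tissues and is abundant in the embryonic kidney line HEK293, a line in which lentivirus is commonly packaged. Its only probe set (11737665_at) read 4.23 and 4.29 on the knockdown arrays and 4.14 and 4.37 on the control arrays. The groups overlapped, with means of 4.26 ± 0.161 in the control and 4.26 ± 0.0415 in the knockdown arrays (SD, n = 2 each), and all 4 values were below the median of all values. The 10 other genes listed for HEK293 were embryonic kidney and neurofilament genes and LIN28B. Of these, LIN28B (6.30), LHX1 (4.27), NEFL (2.86) and EYA1 (0.63) rose, and SALL1 (-1.96) and PAX8 (-1.06) fell. PAX2 (0.06), NEFM (-0.04), NEFH (-0.24) and INA (0.48) did not pass the threshold. The median difference of the 10 was 0.27. The summed log2 signal of these 10 was 67.5 to 68.8 in the knockdown and 56.7 to 57.0 in the control arrays. With the mean of all probe sets LIN28B stood at 4.38, LHX1 at 1.90, EYA1 at 1.73, SALL1 at -1.26 and PAX8 at -0.45. IRS4 (difference -0.0011), PAX2, PAX8, NEFM and NEFH stayed below the median of all values on every array, and the part of the other genes in the results was not tested.

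**Figure D2:**
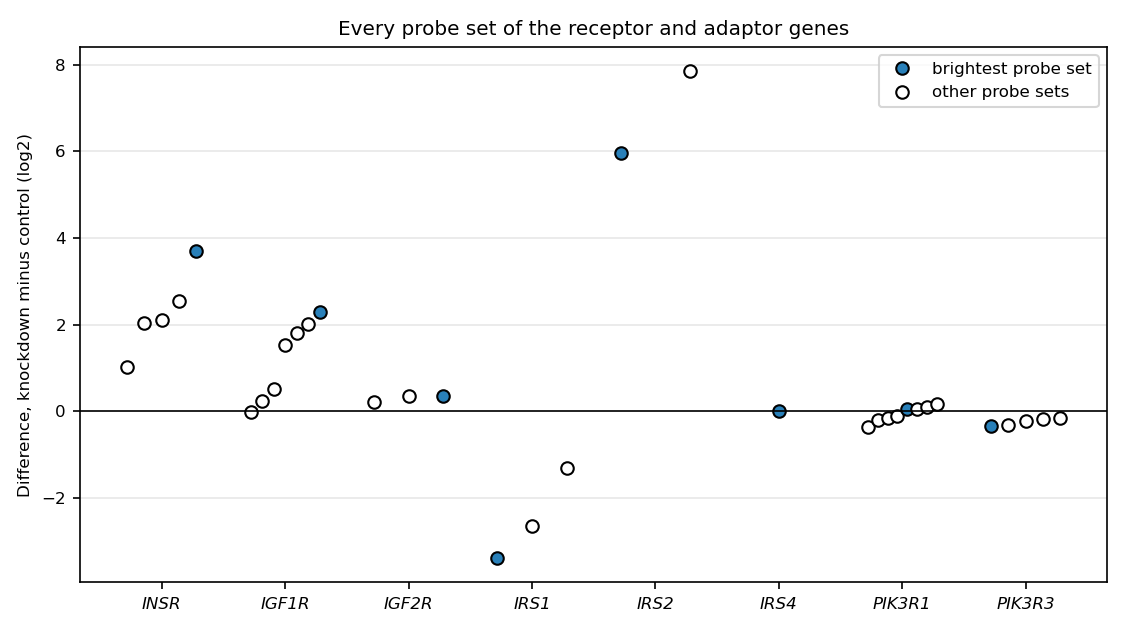
Difference in mean log2 signal, knockdown minus control (vertical axis), for each of the 34 probe sets, grouped by gene; the filled point is the brightest probe set. All INSR and IRS2 points lie above 0 and all IRS1 points below it, IGF1R splits into 4 points above 1.5 and 3 points between -0.03 and 0.50, and the PIK3R1 points scatter around 0.

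PIK3R1 encodes p85alpha and, from internal starts, p55alpha and p50alpha, regulatory subunits of PI3K that bind phosphorylated IRS proteins. Its brightest probe set (11733019_a_at) read 8.50 and 8.65 on the knockdown arrays and 8.55 and 8.52 on the control arrays. The groups overlapped, and the mean moved from 8.54 ± 0.0231 to 8.58 ± 0.106 (SD, n = 2 each), a difference of 0.04. Of its 8 probe sets, 4 stood above and 4 below 0, between -0.36 and 0.16, and for 6 of them the groups overlapped. The 2 without overlap, at -0.36 and -0.15, were below the median of all values on every array.

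PIK3R3 encodes p55gamma, a shorter regulatory subunit. Its brightest probe set (11754316_a_at) read 8.04 and 8.05 on the knockdown arrays and 8.43 and 8.36 on the control arrays. Both knockdown arrays were below both controls, with means of 8.40 ± 0.0529 in the control and 8.04 ± 0.00565 in the knockdown arrays (SD, n = 2 each), 1.28-fold lower (difference -0.35). All 5 PIK3R3 probe sets were lower, between -0.35 and -0.17, and for 4 of them the groups did not overlap. Differences of this size were common: 3376 genes had a larger fall.

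The rest of the pathway was examined with 102 listed genes, of which 88 were measured by a probe set with 1 symbol and 14 are not analysed here. For these the limma test is given. At a limma adjusted p under 0.05, 36 rose, 23 fell and 29 did not pass, that is 59 of 88 (67.0%) beside 50.8% of all genes. The median difference was 0.10, against -0.01 over all genes. The share that passes depends on brightness. With genes left out whose mean was not above the median of all values in either group, 35 of 77 pathway genes rose and 23 fell. In that setting 4900 of 11146 genes in all rose and 3207 fell. For the counts by list below, 29.5% of all genes rose and 21.3% fell. The genes named are the 4 of largest size among those that passed in each group, with some named in any case.

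**Figure D3:**
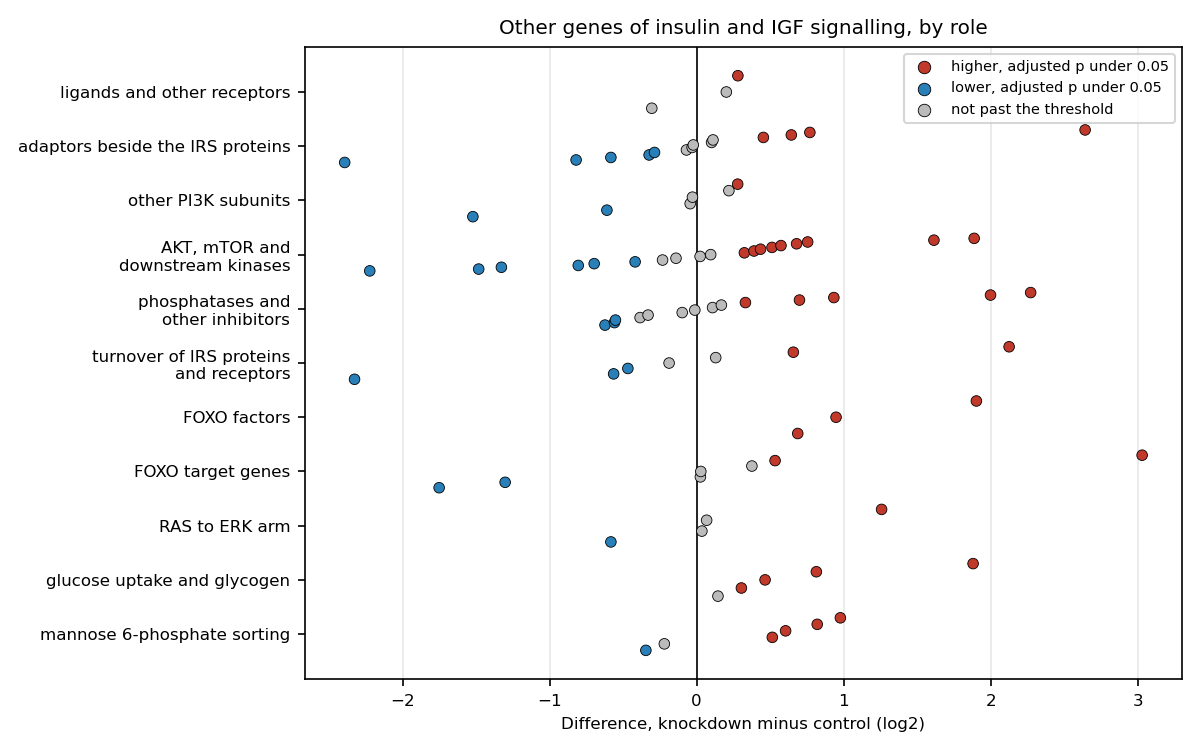
Difference in mean log2 signal, knockdown minus control (horizontal axis), for the 88 other pathway genes by role; each point is a gene, red for higher and blue for lower at a limma adjusted p under 0.05, grey for neither. The 3 FOXO genes all lie to the right of 0, and the adaptors and the AKT and mTOR genes spread to both sides.

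Of the ligands and other receptors, IGF1 stood at 0.20 and did not pass (adjusted p = 0.163) and its 5 probe sets ran from -0.23 to 0.20. INS and IGF2 share their probe sets with the read-through gene INS-IGF2 and were not read. INSRR, a relative of INSR, stood at -0.31 and did not pass. M6PR, the smaller mannose 6-phosphate receptor, rose from 10.45 ± 0.0459 to 10.73 ± 0.0279 (SD, n = 2 each; difference 0.28, SE 0.06, adjusted p = 0.00901), a call that was lost without either control replicate (adjusted p = 0.123 without replicate 1 and 0.058 without replicate 2).

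Among 14 measured adaptors beside the IRS proteins, 4 rose and 5 fell. DOK4 and DOK5, which are also substrates of the insulin receptor and are known as IRS5 and IRS6, went in opposite directions, as IRS2 and IRS1 did. DOK4 read 8.31 and 8.35 on the knockdown arrays and 5.56 and 5.82 on the controls, 6.24-fold higher (difference 2.64, SE 0.13, adjusted p = 3.77e-06). DOK5 read 5.51 and 5.12 against 7.75 and 7.66, 5.25-fold lower (difference -2.39, SE 0.15, adjusted p = 1.45e-05). For both genes the groups lay further apart than the arrays within them, and both of their probe sets went the same way. The other probe set of DOK4 stood at 0.80, its value with probe sets ending in _x_at and _s_at left out, and the mean of both was 1.72. SHC1, which leads from the receptor to RAS, was 1.77-fold lower (adjusted p = 2.61e-05). The RAS activator gene SOS1 was 1.70-fold higher by its brightest probe set (adjusted p = 1.17e-04), but only 2 of its 4 probe sets were higher, and it stood at -0.24 with probe sets ending in _x_at and _s_at left out (adjusted p = 0.0358).

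Of 6 measured subunits of PI3K beside PIK3R1 and PIK3R3, the catalytic subunit genes PIK3CD and PIK3CB fell. PIK3CD was 2.87-fold lower (9.28 ± 0.0801 to 7.76 ± 0.00142, SD, n = 2 each, adjusted p = 1.09e-05) and PIK3CB 1.53-fold lower (adjusted p = 0.00352). The 4 probe sets of PIK3CD ran from -1.52 to -0.40, with a mean of -0.76, and it stood at -0.58 with probe sets ending in _x_at, _s_at or _a_at left out. PIK3R4, a subunit of the class III enzyme, rose by 0.28, and that call was lost without either control replicate (adjusted p = 0.133 without replicate 1 and 0.255 without replicate 2) and with quantile normalization (adjusted p = 0.0556).

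AKT, mTOR and downstream kinase genes numbered 19, of which 9 rose and 6 fell. MLST8, a subunit shared by both mTOR complexes, was 3.70-fold higher (adjusted p = 1.43e-06), and TSC1, part of the complex that restrains mTOR, 3.06-fold higher (adjusted p = 6.07e-06). The mean of the 4 probe sets of TSC1 was a difference of 0.83, against 1.61 for its brightest. The mTOR inhibitor gene DEPTOR was 2.79-fold lower (adjusted p = 1.16e-04). SGK1, a kinase related to AKT and induced by serum and glucocorticoids, was 4.67-fold lower on average. Its knockdown arrays differed from each other, at 8.62 and 7.58, against 10.33 and 10.31 in the controls, and the groups did not overlap (adjusted p = 5.50e-04). AKT1 fell by 0.70 (adjusted p = 1.39e-04), MTOR rose by 0.51 (adjusted p = 0.00148), and AKT2 stood at 0.02 (adjusted p = 0.798), with 4 of its 12 probe sets on that side of 0.

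The phosphatases and other inhibitors of the pathway numbered 14 measured genes, with 5 higher and 3 lower. PTPRF, the receptor phosphatase LAR, which removes phosphate from the insulin receptor, was 4.83-fold higher (9.06 ± 0.0543 to 11.33 ± 0.0855, SD, n = 2 each, adjusted p = 8.58e-07). PHLPP1, a phosphatase of AKT, rose from 6.78 ± 0.0551 to 8.78 ± 0.00473 (SD, n = 2 each, adjusted p = 4.21e-06), a difference of 2.00. Its other probe set stood at 0.74, as PHLPP1 did with probe sets ending in _x_at and _s_at left out, and the mean of both was 1.37. PTPN2 and SOCS6 were 1.91-fold and 1.62-fold higher (adjusted p = 1.95e-04 and 0.00114). The smallest difference among the 3 probe sets of PTPN2 was 0.04. Of 7 genes for the turnover of IRS proteins and receptors, 2 rose and 3 fell. The ubiquitin ligase genes MDM2 and CBLB stood apart in opposite directions, 4.36-fold higher (adjusted p = 2.93e-06) and 5.02-fold lower (adjusted p = 6.82e-06). The 4 probe sets of CBLB ran from -2.33 to -0.41, with a mean of -1.36, and the 11 of MDM2 from 0.30 to 3.58. CBL, a relative of CBLB, was 1.58-fold higher (adjusted p = 4.73e-04), and NEDD4 1.48-fold lower (adjusted p = 0.00485).

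All 3 measured FOXO genes rose, beside 29.5% of all genes. None of the 3 was dim, and with dim genes left out 4900 of 11146 genes rose. FOXO1 read 9.50 and 9.62 on the knockdown arrays and 7.69 and 7.63 on the controls, 3.74-fold higher (difference 1.90, SE 0.09, adjusted p = 4.09e-06). FOXO3 was 1.93-fold higher (adjusted p = 3.79e-05) and FOXO4 1.61-fold higher (adjusted p = 5.38e-04). FOXO1 was higher by each of its 4 probe sets, between 0.15 and 1.90, and FOXO4 by 6 of 7. With probe sets ending in _x_at, _s_at or _a_at left out, FOXO1 stood at 0.15 and FOXO4 at 0.20, and neither passed (adjusted p = 0.543 and 0.216). The 7 genes listed as FOXO targets were split, with 2 higher, 2 lower and 3 not past the threshold. SESN1, a stress-induced inhibitor of mTOR signalling, was 8.16-fold higher (adjusted p = 1.01e-06) and SESN3 1.45-fold higher (adjusted p = 0.0275, and 0.101 without knockdown replicate 5). SESN3 lay below the median of all values on every array. TXNIP, which limits glucose uptake, was 3.37-fold lower (adjusted p = 1.47e-05) and the repressor gene BCL6 2.47-fold lower (adjusted p = 2.50e-05). With probe sets ending in _x_at and _s_at left out, TXNIP stood at -1.07, against -1.75.

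In the RAS to ERK arm, 4 of 9 listed genes were measured. MAPK3, which encodes ERK1, was 2.39-fold higher (adjusted p = 1.23e-04) and MAP2K2, one of its activating kinases, 1.50-fold lower (adjusted p = 2.50e-04), while HRAS and MAP2K1 stood at 0.04 and 0.07. MAPK3 and MAP2K2 were each read by only 1 probe set, which ends in _x_at, so neither has a value with such probe sets left out. In the list for glucose uptake and glycogen, 4 of 5 measured genes rose and 0 fell, beside 29.5% and 21.3% of all genes. None of the 5 was dim, and with dim genes left out 4900 of 11146 genes rose and 3207 fell. PDE3B, a phosphodiesterase that insulin activates, was 3.68-fold higher (adjusted p = 1.62e-05), and its 3 probe sets ran from 1.88 to 4.45. TBC1D4, the AKT substrate that holds back the glucose transporter GLUT4, was 1.76-fold higher (adjusted p = 2.21e-04), GYS1 1.38-fold (adjusted p = 0.00301) and TBC1D1 1.23-fold (adjusted p = 0.0272). The GLUT4 gene SLC2A4 itself stood at 0.14 (adjusted p = 0.341). The call of TBC1D1 was lost without either control replicate, at adjusted p = 0.157 without replicate 1 and 0.148 without replicate 2, and also with the mean of all probe sets (adjusted p = 0.113) or quantile normalization (adjusted p = 0.058).

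Genes of mannose 6-phosphate sorting, the other task of the IGF2R protein, rose in 4 of 6 and fell in 1, beside 29.5% and 21.3% of all genes. None of the 6 was dim, and with dim genes left out 4900 of 11146 genes rose and 3207 fell. GGA2, a sorting adaptor that binds IGF2R, was 1.97-fold higher (adjusted p = 4.65e-05), and GNPTAB and NAGPA, enzymes that make the mannose 6-phosphate tag, were 1.77-fold and 1.52-fold higher (adjusted p = 3.27e-04 and 0.0039). The brightest probe set of GGA3 was 1.43-fold higher (adjusted p = 0.00132), but 3 of its 6 probe sets were lower, and the call was lost with the mean of all 6 (0.14, adjusted p = 0.212). The call of NAGPA was lost with probe sets ending in _x_at, _s_at or _a_at left out, where its other probe set stood at 0.0068 (adjusted p = 0.976).

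The genomic neighbours of the 8 genes, the nearest 3 measured genes on each side in the RefSeq order of GRCh38.p14, numbered 48. Of these 7 rose and 7 fell, 29.2% beside 50.8% of all genes, with a median difference of -0.01. With dim genes left out, 14 of 29 neighbours passed, and of 11146 genes in all 4900 rose and 3207 fell. Each IRS gene has a pair of type IV collagen genes, which encode basement membrane collagen, among the 48 neighbours. IRS2 lies next to COL4A1 and COL4A2, IRS4 next to COL4A5 and COL4A6, and IRS1 has RHBDD1 between it and COL4A4 and COL4A3. COL4A1, next to IRS2, read 10.75 and 10.69 on the knockdown arrays and 13.24 and 13.28 on the controls, 5.80-fold lower (difference -2.54, adjusted p = 2.17e-07). COL4A2 was 4.69-fold lower (difference -2.23, adjusted p = 5.57e-07). These collagen genes thus lay on the opposite side of 0 from IRS2, and MYO16, the measured gene on its other side, stood at -0.21 and did not pass. COL4A4 and COL4A3 stood at 0.11 and 0.04 and COL4A6 and COL4A5 at 0.11 and 0.34, none of them past the threshold. Beyond IRS1, DOCK10 fell 73.3-fold (adjusted p = 3.19e-07) and RHBDD1 1.63-fold (adjusted p = 9.49e-04). NYAP2, between DOCK10 and IRS1, stood at -0.29 and did not pass. MYO16, COL4A4, COL4A3 and NYAP2 lay below the median of all values on every array. RMA signals carry no detection call, so the small differences of these genes may be readings of the background.

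**Figure D4:**
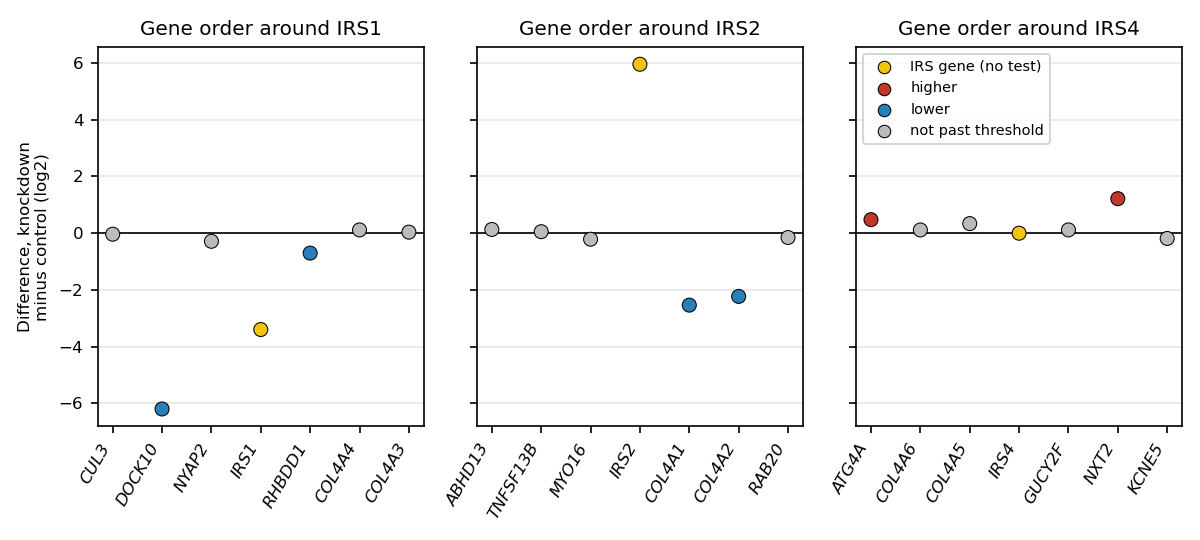
Difference in mean log2 signal, knockdown minus control (vertical axis), of IRS1, IRS2 and IRS4 (yellow, no test) and the nearest 3 measured genes on each side, in gene order (horizontal axis, not to scale); red and blue mark neighbours higher and lower at a limma adjusted p under 0.05. IRS2 at 5.95 stands beside COL4A1 at -2.54 and COL4A2 at -2.23, and IRS4 lies at 0 among neighbours between -0.19 and 1.22.

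The genes whose values followed those of IRS2 most closely over the 4 arrays were SLC18B1, a vesicle transporter, NMU, the neuropeptide neuromedin U, and QPCT, an enzyme that forms N-terminal pyroglutamate. Each gene's values were centred on their own mean, and the root-mean-square distances to IRS2 were 0.0944, 0.125 and 0.129 on the log2 scale. SLC18B1 read 9.84 and 9.93 on the knockdown arrays and 3.91 and 4.32 on the controls. For IRS4, which was flat, the nearest were LINC01465, HAP1 and NLRP7, at distances of 0.0028, 0.0087 and 0.0089. With 4 arrays in 2 groups such likeness rests on few values.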

How the data were processed

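The deposited table holds log2 signals of 4 one-colour arrays, which the authors had normalized by RMA according to the submitters' processing notes; its version is not given in the sources used here. RMA usually equalises the distributions of the arrays, and array medians lay between 6.76 and 6.80. The table carries no detection call, so folds against dim genes depend partly on the floor. Arrays have no read depth, and their number limits precision. The platform annotation named probe sets (44988 with 1 symbol, 1832 with several, 2473 unnamed here), and each gene was read by its brightest probe set (highest mean of the 4 values).

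The test was limma 3.58.1, run in R 4.3.3 (group only, intensity trend, two-sided, Benjamini-Hochberg over 18132 genes, adjusted p under 0.05; 2 residual and 4.83 prior degrees of freedom). With 2 arrays against 2, an exact permutation test cannot reach such a threshold. The fit was also run on simulated data in which far fewer genes differed than here, so that run does not vouch for the calls above. The 8 genes and all lists were chosen with earlier results of these data known. Named are the 8 genes, ELK3, the 4 largest passing genes of each list and some named in any case (IGF1, AKT1, AKT2, MTOR, FOXO1 and FOXO3 of those measured), the marker lists, nearest neighbours and nearest patterns; motifs were chosen after the values were seen. Lists of adipocyte (5 measured), leukocyte (4) and endothelial (3) markers had 0 higher genes and 2, 0 and 1 lower. Figures were drawn with matplotlib 3.10.9.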

Additional observations from a re-analysis of the deposited data

How the results depend on the processing

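Under every alternative that gave a value (no intensity trend and robust moderation change no difference), IRS2, INSR and IGF1R stayed higher and IRS1 lower, all beyond 2-fold. With the mean of all probe sets they stood at 6.90, 2.28, 1.19 and -2.45, and PIK3R1 at -0.06. Leaving out probe sets ending in _x_at, _s_at or _a_at left no value for INSR, PIK3R1 and PIK3R3 and 8354 genes in all; _a_at usually marks transcripts of 1 gene, so leaving out only _x_at and _s_at was added after seeing the data. With all 3 endings left out, 1718 genes rose and 1339 fell of 8354, and 10 pathway genes rose and 5 fell of 33. In that setting 2 of 4 genes of the HEK293 list rose and 0 fell, and 6 of 21 neighbour genes passed. With fold over 1.5 and unadjusted p under 0.05, as in the series' design text, the counts were 3469 and 2284 for all genes and 23 and 13 for pathway genes. With dim genes left out, 5 of 6 genes of the HEK293 list rose and 1 fell. SOS1 reversed, to -0.24 with all 3 endings or only _x_at and _s_at left out. With all 3 endings left out FOXO1 stood at 0.15 (adjusted p = 0.543), FOXO4 at 0.20 (adjusted p = 0.216) and NAGPA at 0.0068 (adjusted p = 0.976), none past the threshold, and AKT2 passed at 0.58 (adjusted p = 0.00688). GGA3 was at 0.14 when its probe sets were averaged (adjusted p = 0.212). Leaving out each array in turn gave 30 to 39 pathway genes higher and 19 to 28 lower; the lone array of a group is then assumed to vary like the others. No paired analysis was possible because the groups share only replicate number 1. The causes were not tested.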
